A study of Mus musculus with 38 samples.

Results

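Bcl11b, Tbr1, Bhlhe22, Neurod2, Neurod6, Cux1, Cux2 and Mef2c encode transcription factors that pattern the excitatory neurons of the cerebral cortex. These 8 genes were chosen by name from the 22401 genes with a coding sequence in the count files, and all 8 passed the filter on low counts in every comparison. Their translation was followed by PL-Ribo-seq, in which a biotin ligase (TurboID) labels nearby proteins, biotinylated ribosomes are pulled down on streptavidin and the mRNA fragments that ribosomes protect are sequenced. The 38 libraries came from primary cortical neurons of CD-1 mouse embryos and fell into 14 groups. All cultures carried a doxycycline-inducible lentiviral ligase and received cycloheximide for 2 min and, per the labels, biotin for 30 min. The study's outline of the workflow has a shorter time for DHPG.

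In the KCl experiment, 12 inputs and 12 pulldowns held 3 replicates each of resting and depolarized neurons with either ligase. Pan-TurboID has no localization signal, and PSD95-TurboID carries signals of the postsynaptic protein PSD95 that take it to dendrites. Depolarized cultures were silenced for 2 h with tetrodotoxin and DL-AP5 and then received 55 mM KCl for 1 h. In a further experiment, PSD95-TurboID neurons received 100 µM DHPG, which activates metabotropic glutamate receptors of group I, for 10 min after the same silencing (3 inputs and 3 pulldowns). In the last, PSD95-TurboID neurons carried 20 nM siRNA against the translation factor eIF4G2 for 72 h and were resting or depolarized (2 inputs and 2 pulldowns each). No control siRNA library was analysed here. Per the labels' sample descriptions the DHPG inputs and the knockdown libraries were cytosolic, whereas the virus field names PSD95-TurboID, which was used for the grouping.

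Neurons of the deep cortical layers are marked by Tbr1, a T-box factor of corticothalamic cells, and by Bcl11b (CTIP2), a zinc finger factor of subcerebral projection cells that inhibitory neurons also express. The homeodomain factors Cux1 and Cux2 mark the upper layers. Neurod2 and Neurod6 are basic helix-loop-helix activators that switch on as pyramidal neurons leave the cell cycle, and Bhlhe22 (BHLHB5) is a basic helix-loop-helix repressor of the same cells that shapes area identity. Mef2c, a MADS-box factor, is regulated by calcium signalling and shapes synapse number. Each acts in the nucleus, but its protein is made wherever ribosomes hold its mRNA, which can be in the soma or in dendrites.

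The cultures carried the markers of the labelled cell type. Slc17a7, the vesicular glutamate transporter of cortical excitatory cells, averaged 204 CPM (counts-per-million, relative to each library's total over coding sequences, CDS) over the 19 inputs. Summed over 5 glutamatergic genes, the inputs of the KCl experiment ran from 544 to 862 CPM and those of the DHPG and knockdown experiments from 661 to 1067 CPM. Inhibitory neurons were present as well: 10 GABAergic genes summed to between 1674 and 3213 CPM in the KCl experiment's inputs and to between 763 and 1761 CPM in the others. Over 8 astrocyte genes the sums were 646 to 1296 and 236 to 882 CPM, led by Slc1a3, Slc1a2 and Aldh1l1 (227, 219 and 113 CPM on average over inputs, in every library above 0), with S100b at 0 in 29 of 38 libraries. Over 6 progenitor genes they were 236 to 589 and 106 to 458 CPM in inputs and reached 836 CPM in a depolarized knockdown pulldown, and over 7 oligodendrocyte genes they were 162 to 608 and 44.5 to 192 CPM. Microglial and endothelial sums stayed at or below 21.8 and 4.70 CPM. In bulk lysates of such mixed cultures, fewer cells of a type and less RNA per cell cannot be told apart.

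The checks on treatment and bait moved in the labelled directions by edgeR's quasi-likelihood test. Arc, an immediate early gene, was 3.48 log2 units higher in depolarized than in resting inputs of the KCl experiment (adjusted p = 3.58e-12). In knockdown inputs it was 1.83 log2 units higher after KCl (adjusted p = 6.42e-05). Eif4g2, the siRNA's target, stood at 284 and 284 CPM in resting and 337 and 323 CPM in depolarized knockdown inputs, against 562, 565 and 582 CPM in resting and 576, 538 and 772 CPM in depolarized PSD95-TurboID inputs of the KCl experiment. The log2 differences were −0.98 at rest (adjusted p = 0.00375) and −0.90 after KCl (adjusted p = 0.00641), across experiments. The DHPG inputs, which had no siRNA, had 444 to 457 CPM, below the resting inputs (−0.23, adjusted p = 0.0635). Dlg4, whose product is PSD95, was 4.47 log2 units higher in resting PSD95-TurboID pulldowns than in inputs, where reads of the gene and of the PSD95 sequence in the ligase construct cannot be told apart. CDS counts per library ran from 2048604 to 14646402 (median 5014812), and counts of the 8 genes from 33 (Bhlhe22) to 10560 (Tbr1).

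Neurod2, Neurod6 and Bhlhe22 have their whole coding sequence in 1 exon and carried the largest shares of counts in the 5′ UTR, so the start codon of each is shown with 1 of its upstream ATGs, the one that opens the longest frame. The sequences are from GENCODE M21 transcripts on GRCm38, the build also called mm10, with the ATG in capitals.
Neurod6 start codon, chr6:55679648-55679650, minus strand: taaggttaaagaaccATGttaacactaccg
Neurod6 upstream ATG, chr6:55681129-55681131, minus strand: tcactagcagatggcATGggtaccagctct
Neurod2 start codon, chr11:98328334-98328336, minus strand: cctctctgaggcaccATGctgacccgcctg
Neurod2 upstream ATG, chr11:98329619-98329621, minus strand: ccccgcctggtagagATGccacactcgctc
Bhlhe22 start codon, chr3:18054788-18054790, plus strand: cggctggcccggacgATGgaacgcgggttg
Bhlhe22 upstream ATG, chr3:18054577-18054579, plus strand: gaggggccgcggcccATGgtgagccttagc
The upstream ATG shown for Neurod6 lies 189 nt before the start codon and opens a frame of 49 codons that closes within the 5′ UTR. That of Neurod2 lies 193 nt before the start codon and opens 33 codons, also closed in the 5′ UTR. That of Bhlhe22 lies 211 nt before the start codon and its frame of 137 codons runs past the CDS start. A purine stood at position −3 in all 8 genes (84.1% of 20738 transcripts), and a purine at −3 together with G at +4 in Mef2c, Bhlhe22, Cux1 and Cux2 (40.9% of transcripts).

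Neurod6 held 14 upstream ATGs in a 5′ UTR of 321 nt, all with a frame that closes before the start codon. Bhlhe22 held 8 in 614 nt, Neurod2 4 in 220 nt and Mef2c 3 in 375 nt, and Tbr1, Bcl11b, Cux1 and Cux2 held 2 each. Over all 20738 transcripts the median was 1 ATG in a median 5′ UTR of 175 nt, and 55.2% held at least 1. An upstream ATG is a description of the sequence and not a measured start site. Those of Mef2c at −194 and −171 nt from the start codon lie in exons of its longest transcript in which no library had a read.

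The coding sequences lie on 7 chromosomes. Tbr1 (chromosome 2, 61804708 to 61812438, plus strand) has 6 coding exons, Bcl11b (chromosome 12, 107915400 to 108003143, minus strand) has 4 and Mef2c (chromosome 13, 83575677 to 83662631, plus strand) has 10. Cux1 (chromosome 5, 136274791 to 136567240, minus strand) has 24 coding exons and Cux2 (chromosome 5, 121860595 to 121921349, minus strand) has 20. The coding exons of Bhlhe22, Neurod2 and Neurod6 lie at 18054788 to 18055855 of chromosome 3, 98327185 to 98328336 of chromosome 11 and 55678637 to 55679650 of chromosome 6. Few reads could be split between relatives: of 25-base words, Neurod2 shared 1 of 1128 with Neurod1 and Mef2c shared 4 of 1431 with Mef2d, and none was shared between Cux1 and Cux2 or between Neurod2 and Neurod6.

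Per kilobase of coding sequence the genes covered a wide range of ribosome density. In the 19 inputs Tbr1 averaged 313 ± 86.7 CPM per kb (SD), Mef2c 254 ± 44.6, Neurod6 141 ± 48.1 and Neurod2 118 ± 23.6 CPM per kb. Bhlhe22 averaged 96.6 ± 61.5, Bcl11b 66.2 ± 12.01, Cux1 13.3 ± 2.82 and Cux2 9.22 ± 2.40 CPM per kb. The SD ranges of Tbr1 and Mef2c overlapped, as did those of Neurod6, Neurod2 and Bhlhe22. That of Bcl11b lay within that of Bhlhe22. The upper-layer pair overlapped each other and lay below the other 6. The order differed between experiments. In the 12 inputs of the KCl experiment Bhlhe22 averaged 53.1 CPM per kb, below Bcl11b at 71.3, and Neurod6 (115) lay beside Neurod2 (117). In the 7 inputs of the DHPG and knockdown experiments Bhlhe22 averaged 171 CPM per kb and Neurod6 186, both above Neurod2 at 121, and Mef2c averaged 295 and Tbr1 275.

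Bhlhe22 varied most across the 14 groups, by 7.40-fold between its highest group mean, 197 CPM in DHPG inputs, and its lowest, 26.6 CPM in depolarized PSD95-TurboID pulldowns. Neurod6 spanned 3.63-fold, Cux1 3.52-fold and Tbr1 3.30-fold, the last from 802 CPM in depolarized PSD95-TurboID inputs to 243 CPM in DHPG pulldowns. Neurod2 spanned 2.55-fold, Mef2c 2.10-fold, Cux2 2.01-fold and Bcl11b 1.75-fold. In the order of the 14 group means, most neighbours were not separated. The ranges of adjacent groups overlapped in 13 of 13 steps for Bcl11b and Neurod2, 12 for Cux1 and Cux2, 11 for Tbr1 and Neurod6 and 10 for Bhlhe22 and Mef2c.

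**Figure D1:**
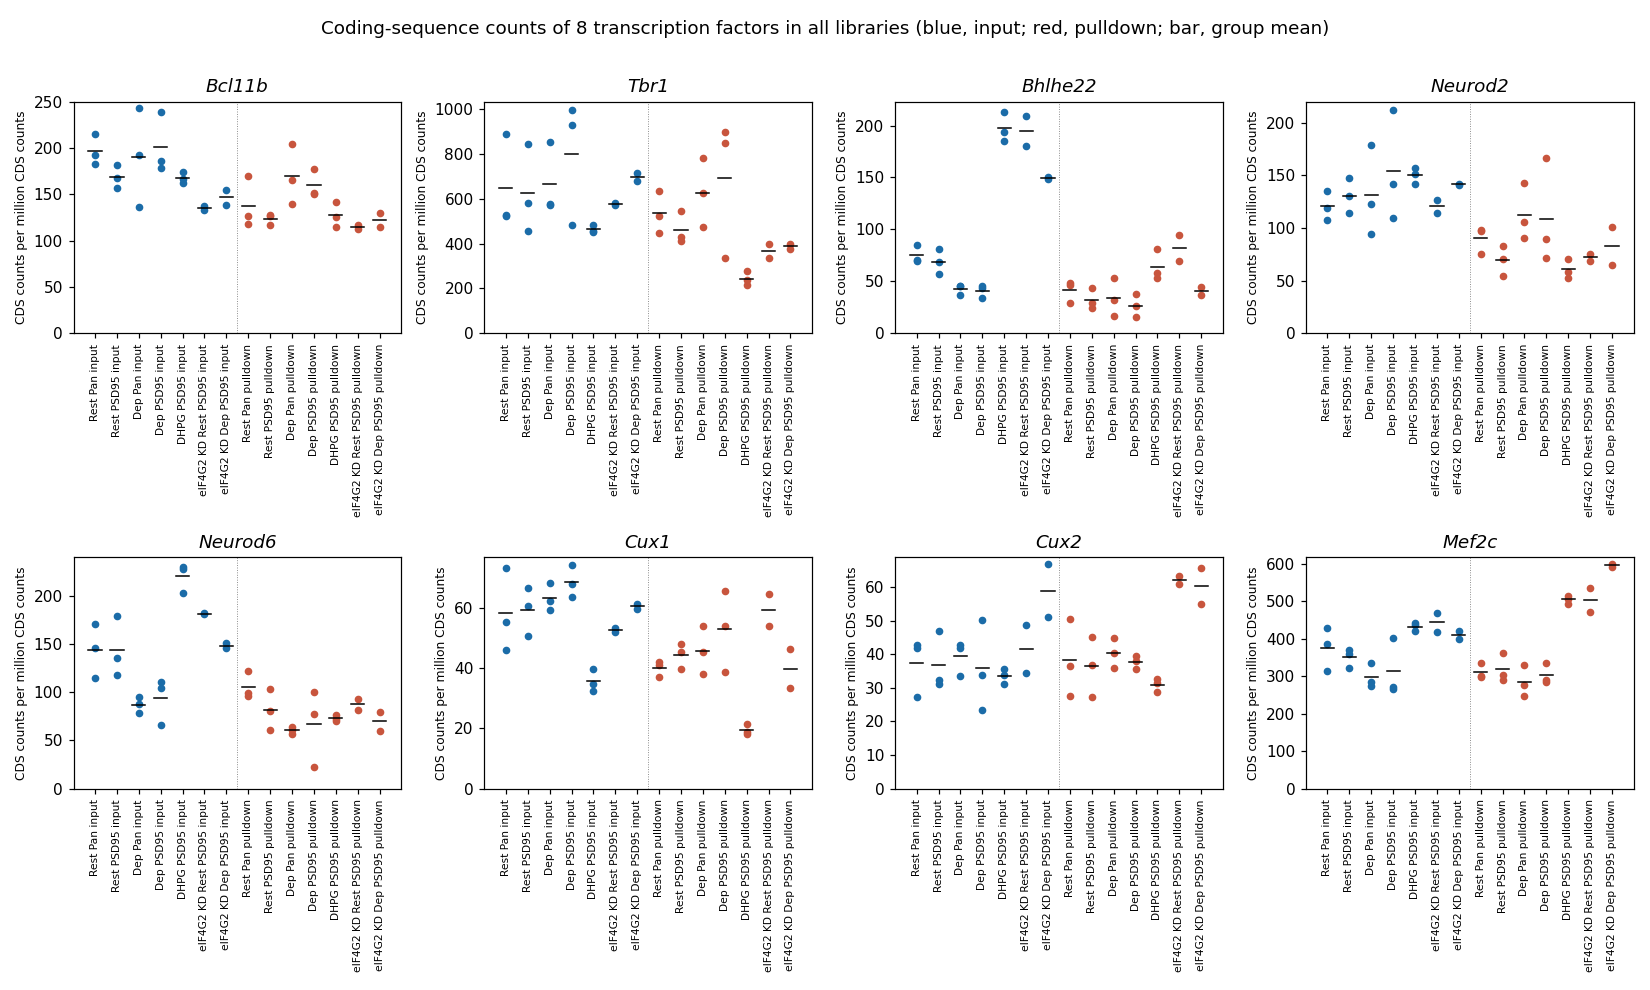
CPM over the CDS (vertical axis, from 0) of each of the 8 genes in every library, by group; blue points are inputs, red points pulldowns and bars the group means. For Bhlhe22 the DHPG and knockdown inputs sit between 149 and 213 CPM and those of the KCl experiment between 33.6 and 84.9 CPM.

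The first question was how depolarized cultures, silenced and then given KCl, differed from resting ones in ribosome footprints of the whole lysate. Bhlhe22 and Neurod6 fell, and the other 6 genes did not pass the threshold. Bhlhe22 counts in the 6 resting inputs ran from 56.9 CPM through a median of 70.0 to 84.9 CPM, and in the 6 depolarized inputs from 33.6 through 44.2 to 45.5 CPM. Neurod6 ran from 115 through 140.2 to 178 CPM in resting and from 65.6 through 91.4 to 111 CPM in depolarized inputs. For both genes every depolarized input lay below every resting input. Here and below, ranges that overlap or not are descriptions and not tests, and how often they separate over all genes is not given.

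By the quasi-likelihood test of edgeR, with p-values adjusted over 13019 genes by the Benjamini-Hochberg method, Bhlhe22 changed by a log2 fold change of −0.76 (SE 0.22, 95% interval −1.18 to −0.33, adjusted p = 0.0174). Neurod6 changed by −0.63 (SE 0.21, −1.05 to −0.22, adjusted p = 0.0422). These 2 calls among 8 genes stand beside 15.4% called over all genes tested, and the median log2 fold change was 0.10 for the 8 genes and −0.01 for all genes. Both calls held without replicate 1 (adjusted p = 0.0290 and 0.0443) and were lost without either of the others: without replicate 2 the adjusted p was 0.178 for Bhlhe22 and 0.137 for Neurod6, and without replicate 3 it was 0.0845 and 0.239.

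Mef2c inputs ran from 315 through 364 to 428 CPM at rest and from 265 through 279 to 401 CPM after KCl, with overlap (log2 fold change −0.22, SE 0.14, adjusted p = 0.321). Tbr1 had 456 to 891 CPM at rest and 482 to 996 CPM after KCl (0.23, SE 0.22, adjusted p = 0.541). Neurod2 had 108 to 147 and 93.9 to 212 CPM (0.21, SE 0.19), and Bcl11b 157 to 215 and 137 to 244 CPM (0.13, SE 0.14). The groups of all these genes overlapped. Cux1 (46.2 to 73.3 against 59.3 to 74.3 CPM) and Cux2 (27.3 to 47.1 against 23.4 to 50.3 CPM) overlapped as well, with log2 fold changes of 0.20 (95% interval −0.09 to 0.48) and 0.06 (−0.31 to 0.43).

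Of 29 other transcription factors of cortical projection neurons and progenitors, 28 were tested in these inputs. Of these 2 rose and 5 fell, with a median of −0.28. The 3 of the 5 with the smallest p and both that rose are named here. Foxp2, a forkhead factor of deep-layer neurons, rose by 1.09 on the log2 scale (SE 0.24, adjusted p = 0.00250), and Id2, an inhibitor of basic helix-loop-helix factors, rose by 0.70 (SE 0.23, adjusted p = 0.0355). Rorb, a nuclear receptor of layer 4 neurons, changed by −1.05 (SE 0.24, adjusted p = 0.00280), the POU factor Pou3f2 by −0.78 (SE 0.20, adjusted p = 0.00806) and Mef2d, a relative of Mef2c, by −0.47 (SE 0.15, adjusted p = 0.0314). Of the marker lists, 2 of 6 pan-neuronal and 1 of 5 glutamatergic genes fell and 1 of 10 GABAergic genes rose, with medians of −0.16, −0.28 and 0.34. No astrocyte, oligodendrocyte or progenitor gene passed (medians −0.18, −1.03 and −0.46), and their part in the changes of Bhlhe22 and Neurod6 was not tested.

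In pulldowns, KCl gave no call among the 8 genes. In PSD95-TurboID pulldowns, where edgeR called 6.60% of all genes and DESeq2 likewise called none of the 8, Neurod2 alone had an unadjusted p under 0.05. It had 54.8, 70.6 and 82.5 CPM at rest and 71.5, 166 and 89.1 CPM after KCl, higher in each of the 3 replicate pairs (0.68, SE 0.28, adjusted p = 0.143). With the replicate number as a block its log2 fold change was 0.63 (adjusted p = 0.0446). Tbr1 (0.60, SE 0.31) and Bcl11b (0.39, SE 0.20) did not pass, and the 95% interval of Bhlhe22 ran from −0.86 to 0.37. Neurod6 was at −0.25, Cux1 at 0.28, Cux2 at 0.06 and Mef2c at −0.06. The median of the 8 genes was 0.17 and that of all genes 0.03.

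In Pan-TurboID pulldowns the share called over all genes was 5.03%, and neither edgeR nor DESeq2 called any of the 8. Neurod6, with 122, 99.0 and 95.9 CPM at rest and 64.1, 56.4 and 61.2 CPM after KCl, was lower in 3 of 3 pairs with no overlap, but missed the threshold (−0.74, SE 0.30, unadjusted p = 0.0208, adjusted p = 0.169). It was the only one of the 8 with an unadjusted p under 0.05. Of the others Neurod2 (0.38), Bcl11b (0.36), Tbr1 (0.27), Cux1 (0.24) and Cux2 (0.16) had positive and Bhlhe22 (−0.24) and Mef2c (−0.06) negative log2 fold changes. The median was 0.20 for the 8 genes and 0.03 for all genes, and of the 28 other factors 1 rose in PSD95-TurboID and 1 fell in Pan-TurboID pulldowns.

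The next question was which mRNAs were carried by ribosomes near the dendritic ligase. At rest, Bhlhe22, Neurod2, Neurod6 and Bcl11b were lower in PSD95-TurboID pulldowns than in the 6 resting inputs. Bhlhe22 had 29.1, 43.2 and 23.9 CPM in the pulldowns, below the lowest input of 56.9 CPM. Neurod2 had 54.8, 70.6 and 82.5 CPM against inputs from 108 to 147 CPM, and Neurod6 103, 80.0 and 60.5 CPM against inputs from 115 CPM up. Bcl11b had 117, 127 and 128 CPM in the pulldowns and at least 157 CPM in the inputs. For these genes no pulldown reached the lowest input.

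The log2 fold changes were −1.12 for Bhlhe22 (SE 0.28, adjusted p = 0.00497), −0.83 for Neurod2 (SE 0.25, adjusted p = 0.0134), −0.79 for Neurod6 (SE 0.27, adjusted p = 0.0267) and −0.53 for Bcl11b (SE 0.18, adjusted p = 0.0254). These 4 calls stand beside 31.1% of all genes called in either direction, and the medians were −0.48 for the 8 genes and −0.04 for all. Leaving out replicate 1, 2 or 3 left 3, 2 and 0 calls among the 8.

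Tbr1, with 430.4, 413 and 546 CPM in pulldowns against 456 to 891 CPM in inputs, did not pass (−0.43, SE 0.28, adjusted p = 0.236). With a replicate block within each condition it was −0.40 (adjusted p = 0.0398). Cux1 had 39.7, 48.2 and 45.4 CPM and overlapped the inputs (−0.38, SE 0.18, adjusted p = 0.120). Its coding exons 1 to 14, shared with a transcript for a Golgi protein, were at −0.59 (adjusted p = 0.0491). Cux2 (0.01, 95% interval −0.44 to 0.46) and Mef2c (−0.16, −0.49 to 0.18) lay near the inputs. Of the 28 other factors 8 were lower and none higher, with a median of −0.45. Of the marker genes, 4 of 5 glutamatergic ones were higher in these pulldowns (median 0.62), 2 of 10 GABAergic ones higher and 3 lower (−0.83), 2 of 6 pan-neuronal ones lower (−0.31), 1 of 6 progenitor ones higher and 2 lower (−0.93) and 1 of 7 astrocyte ones lower (0.51), and their part was not tested.

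Coding length moved with this comparison. Across 13019 genes, Spearman's correlation of the log2 fold change with CDS length was 0.52, as a description over genes that share the same libraries. Neurod6 (1014 nt), Bhlhe22 (1068 nt), Neurod2 (1152 nt) and Mef2c (1455 nt) are the shortest of the 8, Tbr1 (2046 nt) and Bcl11b (2655 nt) lie between, and Cux1 and Cux2 have 4281 nt each. With the trend on length removed, Bhlhe22 stood at −0.99 (adjusted p = 0.00656), Neurod2 at −0.77 (adjusted p = 0.0134) and Bcl11b at −0.82 (adjusted p = 0.00334). Neurod6 then missed the threshold (−0.62, adjusted p = 0.0608) and Cux1 passed it (−0.78, adjusted p = 0.0105).

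After KCl none of the 8 genes passed in PSD95-TurboID pulldowns over inputs by edgeR or DESeq2 (18.0% of all genes called by edgeR), and only Bhlhe22 had an unadjusted p under 0.05. Bhlhe22 had 16.0, 37.5 and 26.4 CPM in pulldowns, partly within the depolarized inputs' range (−0.60, SE 0.28, adjusted p = 0.124). Neurod2 had 71.5, 166 and 89.1 CPM (−0.37, SE 0.24) and Neurod6 22.8, 100.1 and 77.6 CPM (−0.41, SE 0.26). Replicate 1 was the low one for these genes and for Tbr1 (335, 901 and 848 CPM), and its 2057107 CDS counts were the second lowest of all libraries. With a replicate block within condition, Bhlhe22 (−0.63, adjusted p = 0.0190) and Neurod2 (−0.40, adjusted p = 0.0250) passed, for which the share over all genes is not given. Cux1 (−0.30), Bcl11b (−0.27), Tbr1 (−0.06), Cux2 (0.01) and Mef2c (0.00) did not pass. The medians were −0.29 for the 8 genes and −0.01 for all, and of the 28 other factors 1 was higher and 3 lower. Of the markers 3 glutamatergic genes were higher (0.59), 1 GABAergic (−0.91) and 1 pan-neuronal gene (−0.15) lower, and 1 progenitor gene higher and 1 lower (−0.93).

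**Figure D2:**
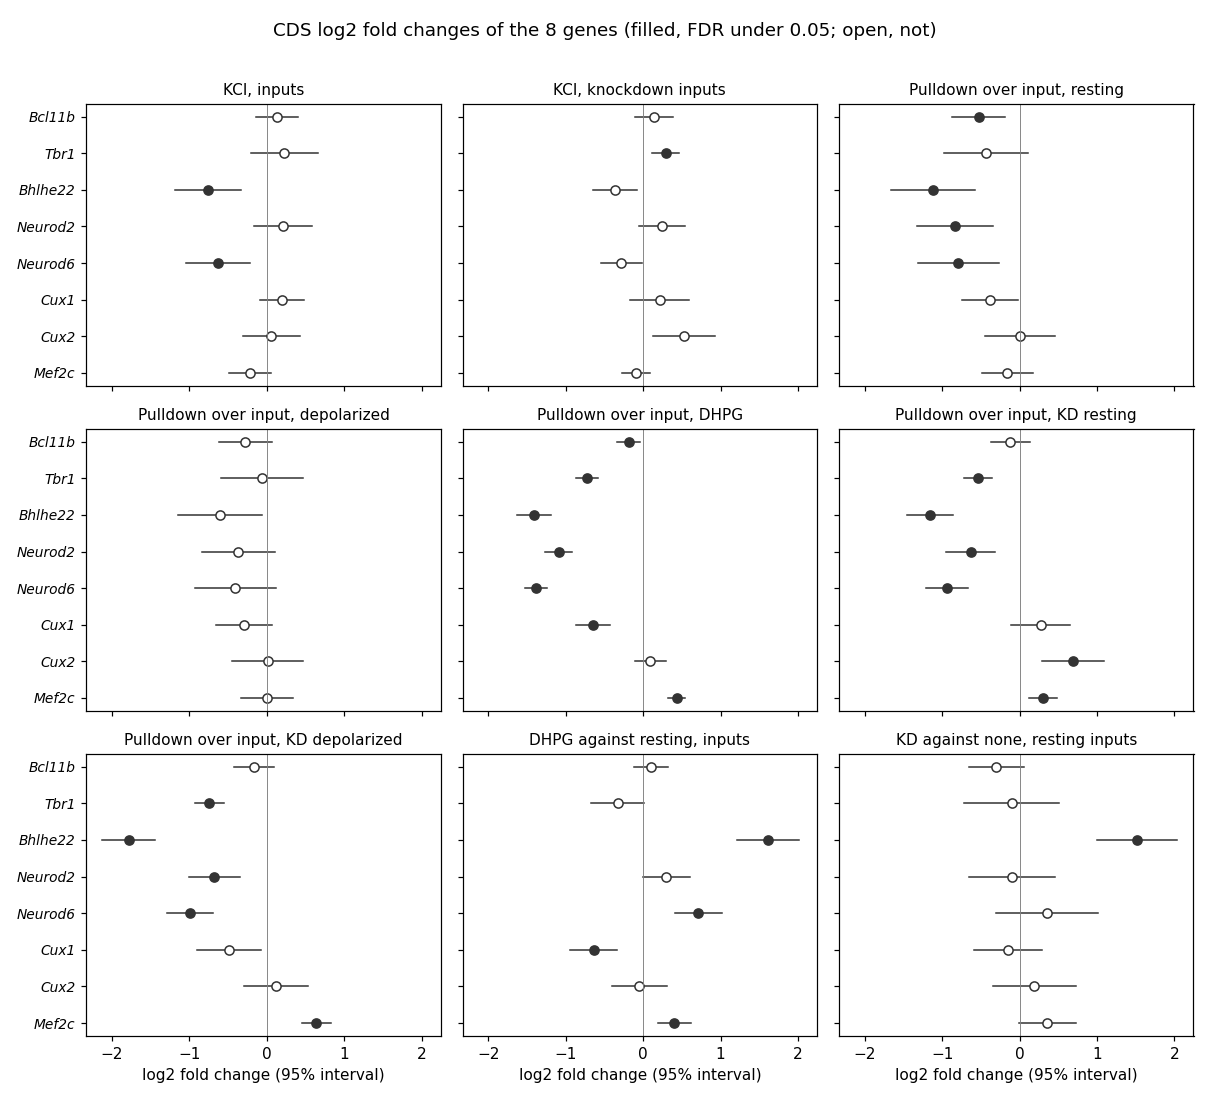
CDS log2 fold change (horizontal axis, point) with its 95% interval (line) of the 8 genes in 9 comparisons, with pulldowns and knockdown libraries (KD) those of PSD95-TurboID; filled points have an edgeR adjusted p under 0.05. Bhlhe22 lies at −1.12, −1.41, −1.16 and −1.79 in pulldowns over inputs at rest, with DHPG and with knockdown at rest and after KCl.

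In Pan-TurboID pulldowns Cux1 and Bhlhe22 were lower than in inputs, of which Bhlhe22 was also called in resting PSD95-TurboID pulldowns. Averaged over resting and depolarized cultures, Cux1 was lower than in its own inputs by −0.46 (SE 0.15, adjusted p = 0.0187) and Bhlhe22 by −0.55 (SE 0.22, adjusted p = 0.0492), beside 34.2% of all genes called. For Cux1 the value was −0.66 (adjusted p = 0.00726) over the shared exons 1 to 14 and −0.17 (adjusted p = 0.555) over the homeodomain exons 15 to 24. Cux1 had 42.2, 37.2 and 41.1 CPM in resting and 38.01, 45.5 and 54.1 CPM in depolarized pulldowns, against 55.5, 73.3 and 46.2 and 59.3, 62.4 and 68.5 CPM in the paired inputs, and was lower in each of the 6 pairs. Bhlhe22 was lower in 5 of 6 pairs, with depolarized replicate 3 the exception (45.1 CPM input, 53.3 CPM pulldown). Tbr1 (−0.13), Mef2c (−0.12) and Cux2 (0.08) did not pass. The medians were −0.28 for the 8 genes and −0.02 for all.

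Both Pan-TurboID calls were lost on leaving out any of the 3 replicates. That of Bhlhe22 was lost in 6 of 12 alternatives, also with the length trend removed (adjusted p = 0.0970), with the highest-count transcript (0.0533) and in the fit of the compared groups alone (0.0608). With a replicate block within condition 5 of the 8 genes passed, adding Bcl11b (−0.29, adjusted p = 0.0225), Neurod6 (−0.43, adjusted p = 0.0483) and Neurod2 (−0.27, adjusted p = 0.0464). The share of all genes called with that block is not given here. Of the 28 other factors 2 were higher and 8 lower. Of the markers 4 glutamatergic genes were higher (0.64), 6 of 10 GABAergic (−0.996), 3 of 7 oligodendrocyte (−0.68), 2 pan-neuronal (−0.07) and 1 astrocyte gene (0.21) lower, and 1 of 6 progenitor genes higher and 4 lower (−1.18). Their part was not tested. The correlation of fold change with CDS length was 0.55 here.

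Tested directly, the difference between the ligases and its change with KCl gave no call among the 8 genes by edgeR or DESeq2, and none had an unadjusted p under 0.05. Over all genes 0.00768% (1 gene, Dlg4) passed for PSD95-TurboID enrichment beyond Pan-TurboID. The 8 genes lay between −0.40 for Neurod2 (95% interval −0.94 to 0.13) and 0.10 for Cux1 (−0.31 to 0.51), with Bhlhe22 at −0.25, Neurod6 at −0.17, Tbr1 at −0.15, Bcl11b at −0.06, Cux2 at −0.02 and Mef2c at 0.07. For the change of PSD95-TurboID enrichment with KCl, 0% of all genes passed, and the 8 lay between 0.00 for Cux2 and 0.51 for Bhlhe22 (95% interval −0.24 to 1.26), with Neurod2 at 0.47, Neurod6 at 0.38, Tbr1 at 0.37, Bcl11b at 0.25, Mef2c at 0.16 and Cux1 at 0.08.

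With DHPG the pulldowns differed from the inputs in 7 of the 8 genes, 6 lower and 1 higher, beside 79.8% of 12273 genes called in either direction. Neurod6 had 202, 227 and 229.6 CPM in inputs and 72.4, 76.0 and 69.9 CPM in pulldowns (−1.38, SE 0.07, adjusted p = 5.80e-12). Bhlhe22 had 213, 194 and 185 against 53.0, 57.8 and 80.7 CPM (−1.41, SE 0.11, adjusted p = 2.82e-09), and Neurod2 157, 151 and 142 against 52.7, 58.2 and 70.8 CPM (−1.09, SE 0.09, adjusted p = 3.08e-09). The basic helix-loop-helix genes were the 3 lowest of the 8, with no overlap of inputs and pulldowns. They also have the 3 shortest coding sequences, and over all genes the fold change rose with CDS length here (Spearman's correlation 0.62). Some values with that trend removed are given below.

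Tbr1 had 482, 458 and 453 CPM in DHPG inputs and 217, 236 and 278 CPM in pulldowns (−0.72, SE 0.07, adjusted p = 4.88e-08). Cux1 had 32.3, 34.9 and 39.8 against 18.2, 18.7 and 21.6 CPM over its whole CDS (−0.65, SE 0.11, adjusted p = 4.75e-05). The shared exons 1 to 14 were at −1.17, whereas exons 15 to 24, which carry the homeodomain, were at 0.36 (adjusted p = 0.0694). Mef2c went the other way, with 436, 441 and 420.4 CPM in inputs and 515, 494 and 505 CPM in pulldowns (0.43, SE 0.06, adjusted p = 9.60e-07). Bcl11b (174, 166 and 162 against 126, 114 and 142 CPM) was lower too (−0.19, SE 0.08, adjusted p = 0.0332), a call lost without replicate 1 (adjusted p = 0.172) or replicate 2 (adjusted p = 0.304). Cux2, at 33.9, 35.5 and 31.2 against 31.5, 28.7 and 32.6 CPM, did not pass (0.09, 95% interval −0.11 to 0.29).

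In this comparison the medians were −0.69 for the 8 genes and 0.05 for all. Of 27 other factors tested 4 were higher and 18 lower, with a median of −0.86. Of 5 glutamatergic genes 4 were higher (median 0.84), of 10 GABAergic genes 3 were higher and 6 lower (−1.12) and of 6 pan-neuronal genes 1 was higher and 4 lower (−1.23). Of 6 astrocyte genes 2 were higher and 1 lower (0.31), of 6 oligodendrocyte genes 1 was higher and 3 lower (−1.02) and of 5 progenitor genes 2 were higher and 2 lower (0.18). Their part was not tested. The correlation with CDS length was 0.62. With the length trend removed, 7 genes were lower, Cux1 at −1.45, Bcl11b at −0.73 and Cux2 at −0.71 among them, and Mef2c stayed higher at 0.28 (adjusted p = 0.000171). How many of all genes were called in that fit is not given.

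DHPG libraries were next set against resting PSD95-TurboID libraries of the KCl experiment, in which treatment and experiment cannot be told apart and for which the labels state no silencing. Bhlhe22 was higher in the DHPG inputs (213, 194 and 185 CPM) than in the resting ones (68.4, 81.1 and 56.9 CPM), by 1.62 log2 units (SE 0.20, adjusted p = 2.96e-05). Neurod6 (178, 135 and 118 CPM at rest) was higher by 0.71 (SE 0.16, adjusted p = 0.00234) and Mef2c (358, 370.1 and 323 CPM at rest) by 0.40 (SE 0.11, adjusted p = 0.00839). Cux1 (66.6, 60.7 and 50.9 CPM at rest) was lower by −0.64 (SE 0.15, adjusted p = 0.00436), a call lost without DHPG replicate 1 (adjusted p = 0.0522). None of these groups overlapped. Tbr1 (−0.33), Neurod2 (0.30), Bcl11b (0.10) and Cux2 (−0.05) did not pass. The 4 calls stand beside 32.8% of all genes.

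In pulldowns 4 genes differed, beside 47.7% of all genes. Mef2c had 515, 494 and 505 CPM with DHPG and 302, 363 and 291 CPM at rest (0.89, SE 0.11, adjusted p = 6.70e-06). Bhlhe22 was again higher (53.0, 57.8 and 80.7 against 29.1, 43.2 and 23.9 CPM; 1.20, SE 0.21, adjusted p = 0.000311). Cux1 (−0.94, SE 0.16, adjusted p = 0.000148) and Tbr1 (−0.69, SE 0.18, adjusted p = 0.00543) were lower, Tbr1 not without DHPG replicate 1 (adjusted p = 0.0604). Exons 1 to 14 and 15 to 24 of Cux1 were at −0.95 and −0.94, and the last exons of its Golgi-type transcript at 0.32 (adjusted p = 0.359). Bcl11b (0.28), Neurod2 (0.06), Neurod6 (0.06) and Cux2 (−0.03) did not pass. Medians were 0.20 and 0.06 for the 8 genes in inputs and pulldowns, against −0.02 and −0.09 for all genes. Of the 28 other factors 5 rose and 9 fell in inputs, and 6 rose and 14 fell in pulldowns.

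Marker genes moved with both contrasts. In DHPG against resting inputs 6 of 7 astrocyte, 5 of 7 oligodendrocyte and 5 of 6 progenitor genes tested were lower and none higher (medians −2.48, −3.33 and −2.27). Of 6 pan-neuronal genes 3 were higher and none lower (0.28), of 5 glutamatergic genes 3 were higher and 1 lower (0.94), and of 10 GABAergic genes 1 was lower and none higher (0.02). In the pulldowns 7 of 7 astrocyte, 5 of 7 oligodendrocyte and 5 of 6 progenitor genes were lower and none higher (−2.76, −3.44 and −1.62). There 2 pan-neuronal genes were higher and 4 lower (−0.47), 3 glutamatergic genes higher and 1 lower (0.85), and 1 GABAergic gene higher and 3 lower (−0.30). Their part in the differences of the 8 genes was not tested.

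In eIF4G2 knockdown cultures the pulldowns showed the same 4 genes below their inputs at rest and after KCl. At rest Bhlhe22 had 180.2 and 209 CPM in inputs and 69.3 and 94.7 CPM in pulldowns (−1.16, SE 0.15, adjusted p = 6.54e-07). Neurod6 had 182 and 181 against 92.5 and 81.9 CPM (−0.93, SE 0.14, adjusted p = 4.65e-06), and Neurod2 114 and 127 against 69.1 and 75.5 CPM (−0.63, SE 0.16, adjusted p = 0.00236). Tbr1, with 579 and 572 against 337 and 398 CPM, was lower as well (−0.54, SE 0.09, adjusted p = 3.01e-05). No pulldown of these genes reached an input.

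The upper-layer factor Cux2 was higher in the resting knockdown pulldowns, with 34.5 and 48.6 CPM in inputs and 63.3 and 61.0 CPM in pulldowns (0.69, SE 0.20, adjusted p = 0.00673). This call was lost without input replicate 1 (adjusted p = 0.183), and with the length trend removed the value was 0.04. Mef2c was also higher (468 and 418 against 535 and 471 CPM; 0.30, SE 0.09, adjusted p = 0.00894), not without input replicate 2 (adjusted p = 0.201) or pulldown replicate 1 (adjusted p = 0.173). Bcl11b (−0.12) did not pass, nor did Cux1 over its whole CDS (0.27), where exons 15 to 24 were higher (1.55, adjusted p = 0.000471) and exons 1 to 14 lower (−0.63, adjusted p = 0.0301). The 6 calls stand beside 45.5% of 12239 genes, with medians of −0.33 for the 8 and −0.01 for all.

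After KCl with knockdown, Bhlhe22 had 149 and 151 CPM in inputs and 36.6 and 44.6 CPM in pulldowns (−1.79, SE 0.17, adjusted p = 3.94e-09). Neurod6 (145 and 151 against 59.5 and 79.9 CPM; −0.99, SE 0.15) and Tbr1 (680.5 and 716 against 399.9 and 378 CPM; −0.74, SE 0.09) were lower. Neurod2 (142 and 141 against 64.9 and 101 CPM; −0.68, SE 0.17, adjusted p = 0.00160) was lower too, but not without pulldown replicate 1 (adjusted p = 0.0642). Mef2c was higher, with 420.4 and 399 against 600.2 and 591 CPM (0.64, SE 0.09, adjusted p = 3.04e-06). Cux1 (−0.49), Bcl11b (−0.17) and Cux2 (0.12) did not pass, with exons 1 to 14 of Cux1 at −0.84 (adjusted p = 0.00725) and exons 15 to 24 at 0.35 (adjusted p = 0.483). These 5 calls stand beside 48.8% of all genes, and the medians were −0.58 for the 8 and 0.00 for all. Of 27 other factors 3 were higher and 9 lower in each condition. The correlations with CDS length were 0.54 at rest and 0.56 after KCl. With the trend on length removed, all 8 genes passed after KCl, and the share of all genes that did so is not given. Of the markers 2 and 3 of 5 glutamatergic genes were higher at rest and after KCl (medians 0.31 and 0.50). Of 6 pan-neuronal genes 5 were lower at rest (−0.78), and 1 was higher and 3 lower after KCl (−0.40), and of 10 GABAergic genes 3 were higher in each and 5 and 6 lower (−0.39 and −1.08). Of 6 progenitor genes 3 were higher and 1 lower in each (−0.09 and 0.04), of 7 astrocyte genes 1 was higher and 2 lower at rest and 3 and 3 after KCl (0.03 and 0.04), and of 7 oligodendrocyte genes 1 and 2 were lower (−0.74 and −1.004). Their part was not tested.

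KCl in knockdown inputs raised Tbr1, from 579 and 572 to 680.5 and 716 CPM (0.29, SE 0.09, adjusted p = 0.0226), the only call among the 8 beside 19.3% of all genes. The call was lost without any of the 4 libraries (adjusted p from 0.0765 to 0.202). Some alternatives called more of the 8 genes, up to 4 in the fit of the compared groups alone. Bhlhe22 went from 180.2 and 209 to 149 and 151 CPM (−0.37, SE 0.14, adjusted p = 0.0783) and Neurod6 from 182 and 181 to 145 and 151 CPM (−0.28, SE 0.13, adjusted p = 0.158). Neither group pair overlapped, and neither gene passed. Cux2 had 66.8 and 51.0 CPM after KCl (0.53, SE 0.20, adjusted p = 0.0722). Neurod2 (0.24), Cux1 (0.21), Bcl11b (0.14) and Mef2c (−0.10) did not pass.

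In knockdown pulldowns Bhlhe22 fell with KCl, from 69.3 and 94.7 to 36.6 and 44.6 CPM (−0.99, SE 0.18, adjusted p = 0.000175), the only call of the 8 beside 22.2% of all genes. Cux1 had 54.1 and 64.9 CPM at rest and 46.6 and 33.4 CPM after KCl (−0.55, SE 0.21, adjusted p = 0.0648), with exons 1 to 14 at 0.07 and exons 15 to 24 at −1.18 (adjusted p = 0.0187). Mef2c had 535 and 471 and then 600.2 and 591 CPM (0.24, SE 0.09, adjusted p = 0.0589; 0.25 and 0.0464 with the replicate number as a block). Neurod6 (−0.34), Neurod2 (0.20), Bcl11b (0.09), Tbr1 (0.09) and Cux2 (−0.05) did not pass. Markers moved in both KCl contrasts with knockdown, and their part was not tested. In inputs 4 of 10 GABAergic (median 0.60), 2 of 7 astrocyte (0.35) and 2 of 6 progenitor genes (0.45) were higher and none lower, 1 of 6 pan-neuronal genes was higher and 3 lower (−0.32), and 1 of 5 glutamatergic genes was lower (−0.27). In pulldowns 4 GABAergic (0.17) and 2 progenitor genes (0.47) were higher, 3 astrocyte genes were higher and 1 lower (0.57), and 2 of 7 oligodendrocyte (−0.34), 1 pan-neuronal (−0.07), 1 glutamatergic (−0.20) and 1 of 3 microglial genes tested were lower.

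The KCl response of the inputs was not shown to differ with knockdown for any of the 8. edgeR called 0.00758% of 13197 genes (1 gene) and none of the 8, DESeq2 also called none of the 8, and none had an unadjusted p under 0.05. The difference for Bhlhe22 was 0.38 (95% interval −0.37 to 1.13), and the others lay between −0.13 for Bcl11b and 0.53 for Cux2, with Neurod6 at 0.33, Mef2c at 0.06, Neurod2 at 0.00, Cux1 at −0.01 and Tbr1 at −0.06. The check gene Arc rose less with KCl in knockdown inputs (1.83, SE 0.30) than in inputs of the KCl experiment (3.48, SE 0.20). Its difference (−1.52, SE 0.43) was not called either, and knockdown and experiment cannot be told apart.

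Knockdown libraries were also set against libraries without knockdown from the KCl experiment, where knockdown and experiment cannot be told apart. Bhlhe22 was higher with knockdown in resting inputs (180.2 and 209 against 68.4, 81.1 and 56.9 CPM; 1.52, SE 0.27, adjusted p = 0.00165), beside 3.90% of all genes. It was higher in depolarized inputs (149 and 151 against 33.6, 45.5 and 43.3 CPM; 1.90, SE 0.27, adjusted p = 0.000217), beside 5.32%, and in resting pulldowns (69.3 and 94.7 against 29.1, 43.2 and 23.9 CPM; 1.37, SE 0.28, adjusted p = 0.00224), beside 9.15%. Without knockdown replicate 2 the adjusted p was 0.0502 in resting inputs and 0.0692 in resting pulldowns. The DHPG inputs, which had no siRNA, held Bhlhe22 at 185 to 213 CPM, and the 4 knockdown inputs at 149 to 209 CPM.

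Mef2c was higher with knockdown in both kinds of pulldown. At rest it had 535 and 471 against 302, 363 and 291 CPM (0.71, SE 0.19, adjusted p = 0.0196), a call lost without either knockdown pulldown (adjusted p = 0.195 and 0.0776) or replicate 3 without knockdown (adjusted p = 0.0879). After KCl it had 600.2 and 591 against 284, 336 and 289 CPM (1.04, SE 0.19, adjusted p = 0.000706), where 18.9% of all genes were called and Bhlhe22 was not (36.6 and 44.6 against 16.0, 37.5 and 26.4 CPM; 0.65, SE 0.29, adjusted p = 0.120). Fitted on those groups alone, Mef2c had an adjusted p of 0.0628. The DHPG pulldowns, which had no siRNA, held Mef2c at 494 to 515 CPM, and the knockdown pulldowns at 471 to 600 CPM. With the replicate number as a block Bhlhe22 (0.70, adjusted p = 0.0340) and Tbr1 (−0.68, adjusted p = 0.0433) passed as well in depolarized pulldowns. In the fit without the block the other 6 genes passed in none of these comparisons, but Cux2 passed by DESeq2 in resting and depolarized pulldowns (adjusted p = 0.0367 and 0.0352), and Cux1 with the length trend removed in depolarized ones (−0.83, adjusted p = 0.0347). Over the 4 comparisons Bcl11b lay between −0.42 and −0.06, Tbr1 between −0.76 and −0.10, Neurod2 between −0.33 and 0.11, Neurod6 between 0.11 and 0.69, Cux1 between −0.34 and 0.46 and Cux2 between 0.19 and 0.81.

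Marker lists moved with the knockdown contrasts. In resting inputs 5 of 10 GABAergic genes were lower and none higher (median −1.20), and of 5 glutamatergic genes 3 were higher and 1 lower (0.88). In depolarized inputs 4 GABAergic genes were lower (−0.97), and 2 glutamatergic genes were higher and 1 lower (0.70). In resting and depolarized pulldowns 4 and 5 GABAergic genes were lower (−1.19 and −0.99), and 1 glutamatergic gene was higher and 1 lower in each (0.37 and 0.57). Of 6 pan-neuronal genes none passed in inputs, and 3 were lower in each kind of pulldown (−0.63 and −0.59). Progenitor genes did not pass in inputs, and 1 of 6 was higher in resting (median −0.04) and 3 of 6 in depolarized pulldowns (1.14). Of 3 microglial genes tested, 1 was higher in each of the first 3 contrasts and 2 in depolarized pulldowns, where the sum over 7 such genes was 16.0 and 17.2 CPM against 0 to 2.73 CPM without knockdown. Of 7 astrocyte genes 1 was lower in each contrast and 1 higher in depolarized pulldowns, and of 7 oligodendrocyte genes up to 2 were lower and none higher. Their part in the differences of Bhlhe22 and Mef2c was not tested.

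Counts in the 5′ UTR were read as a share of a gene's 5′ UTR and CDS counts. Footprints were placed by their 5′ ends without an offset, so ribosomes on a start codon count toward the 5′ UTR. Neurod6 averaged 38.3% in inputs and 26.8% in pulldowns, Bhlhe22 35.8% and 28.6%, and Neurod2 28.0% and 17.2%. Cux1 averaged 19.9% and 8.67%, Cux2 16.3% and 6.59% and Bcl11b 16.2% and 8.44%. Tbr1 averaged 4.34% and 2.24%, and Mef2c 2.90% and 1.35%. The value of Mef2c rests on the exons of its longest transcript: with an alternative first exon added, a choice made after the values were seen, it was 21.7% in inputs and 9.41% in pulldowns. Over all genes, 5′ UTR counts came to 18.3 to 38.03% of CDS counts in inputs (median 25.9%) and to 4.93 to 23.0% in pulldowns (median 7.00%), so the lower share in pulldowns was not particular to the 8.

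**Figure D3:**
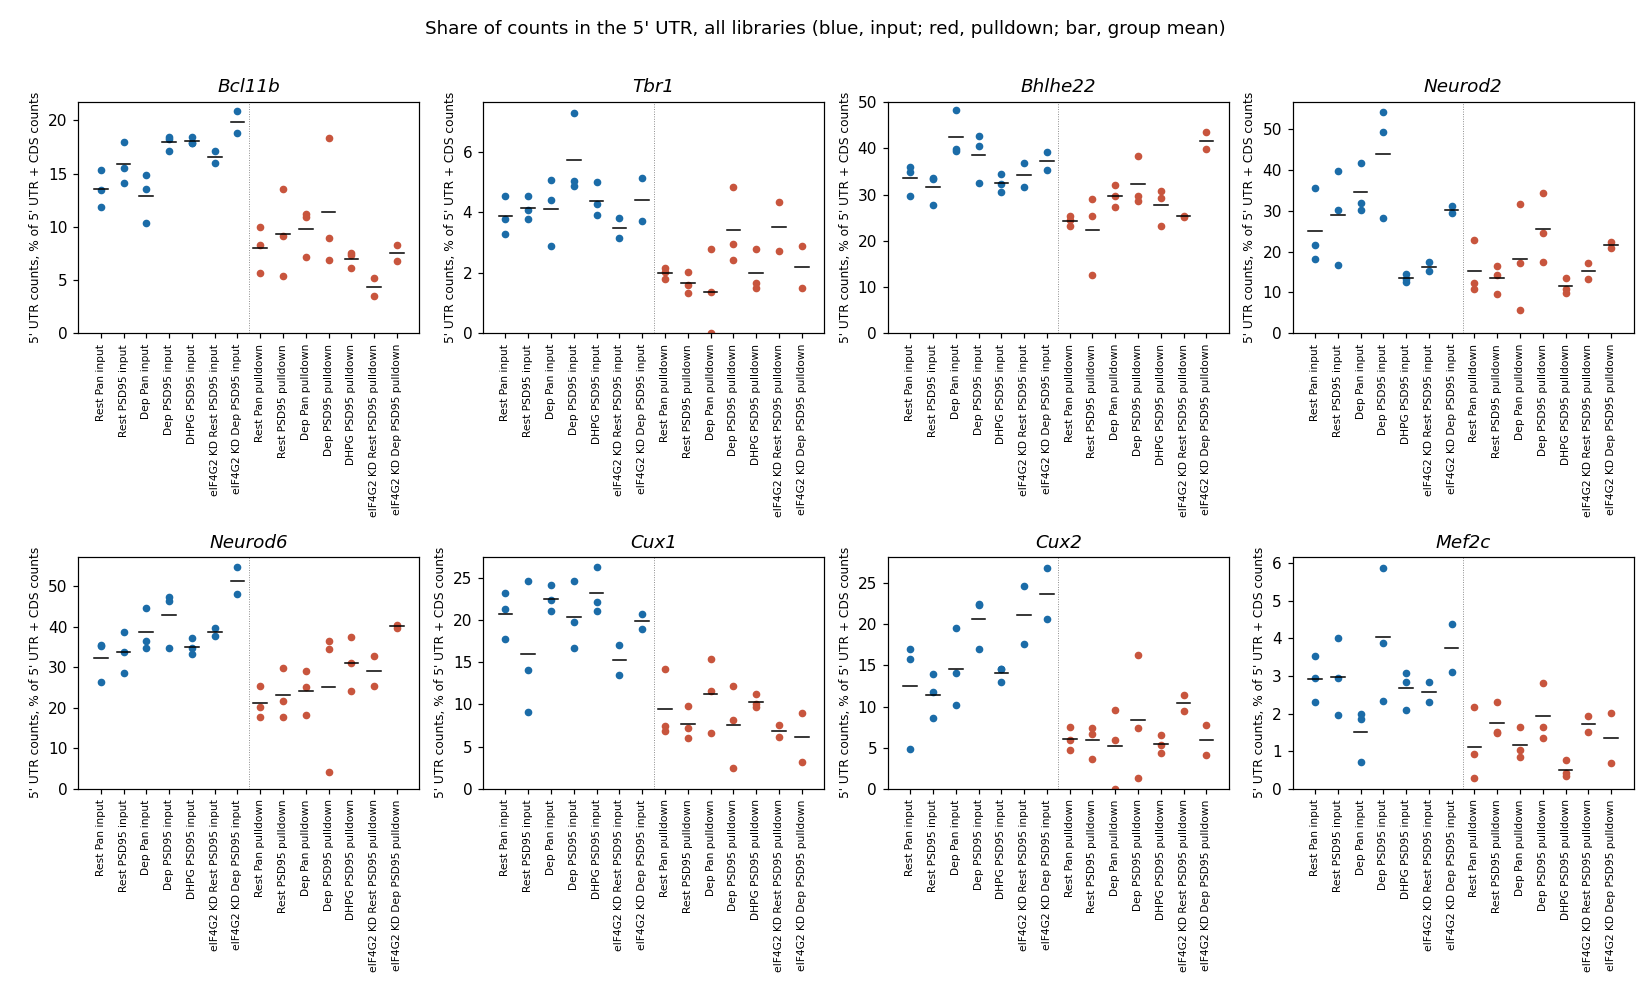
Share of counts in the 5′ UTR (vertical axis, percent of 5′ UTR plus CDS counts, from 0) for each of the 8 genes in every library, by group; blue points are inputs, red points pulldowns and bars the group means. Neurod6, Bhlhe22 and Neurod2 average 38.3%, 35.8% and 28.0% in inputs, and Mef2c 2.90% over the exons of its longest transcript, or 21.7% with its alternative first exon (not plotted).

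By density, the first 5′ UTR exon of Neurod6, which holds the upstream ATG printed above, had 294 ± 121 CPM per kb in inputs against 141 in the CDS, and that of Neurod2 269.8 ± 179 against 118. The 5′ UTR of Cux1 had 69.5 ± 22.6 against 13.3 CPM per kb, and the 4 5′ UTR exons of Cux2 had 11.9 to 81.9 against 9.22. The 5′ UTR of Bhlhe22 had 90.2 against 96.6 CPM per kb and that of Bcl11b 73.3 against 66.2. Tbr1 had 113 CPM per kb in the 5′ UTR against 313 in the CDS. As counted, the 5′ UTR was denser than the CDS in Cux1, Cux2, Neurod6 and Neurod2 and thinner in Tbr1 and Mef2c. The alternative first exon of Mef2c had 171 CPM per kb against 254 in the CDS. In Cux1, 1416 of 2004 5′ UTR counts lay in the 23 nt next to the start codon (461 CPM per kb in inputs). Ribosomes on that codon are counted there. The CDS value of Cux1 is an average over exons 1 to 14 (32.0 CPM per kb) and 15 to 24 (5.57).

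The 5′ UTR share of Neurod6 was higher after KCl in every replicate pair of inputs (matched by number alone in the knockdown experiment), a count of pairs and not a test. PSD95-TurboID inputs went from 28.4, 38.8 and 33.8% to 34.7, 47.3 and 46.2%, Pan-TurboID inputs from 26.3, 35.4 and 35.3% to 34.7, 36.4 and 44.6%, and knockdown inputs from 37.8 and 39.6% to 54.6 and 48.0%. Neurod2 went from 16.7, 30.3 and 39.8% to 49.3, 28.2 and 54.3%, from 18.2, 21.6 and 35.7% to 30.3, 31.8 and 41.7%, and from 17.4 and 15.1% to 31.2 and 29.3%. It was higher in all pairs but replicate 2 of PSD95-TurboID. Bhlhe22 was higher in 2 of 3 PSD95-TurboID, 3 of 3 Pan-TurboID and 1 of 2 knockdown input pairs. Tbr1 and Cux2 were higher in 3 of 3 PSD95-TurboID input pairs, and Bcl11b, Cux1 and Mef2c in 2. In Pan-TurboID inputs Tbr1 and Cux1 were higher in 2 of 3 pairs and Bcl11b and Cux2 in 1, and Mef2c was lower in all 3. In knockdown inputs Bcl11b, Tbr1, Cux1 and Mef2c were higher in both pairs and Cux2 in 1. In pulldowns Bhlhe22 was higher in 3 of 3 pairs with either ligase, Neurod2 in 3 of 3 with PSD95-TurboID and 2 of 3 with Pan-TurboID, and Neurod6 in 2 of 3 with either. In PSD95-TurboID pulldown replicate 1 Neurod6 went from 17.6 to 4.08%, the latter from 2 counts in the 5′ UTR and 47 in the CDS. In knockdown pulldowns Bhlhe22 (25.4 and 25.3% to 43.5 and 39.9%), Neurod6, Neurod2 and Bcl11b were higher in both pairs and Cux2 was lower in both (11.4 and 9.49% to 7.69 and 4.11%). The share over all genes moved too, from 16.6 to 22.5% at rest to 22.4 to 27.5% after KCl in PSD95-TurboID inputs and from 15.5% to 20.5 to 21.4% in knockdown inputs. In Pan-TurboID inputs it overlapped, at 18.5 to 21.7% and 16.9 to 24.4%, and was lower after KCl in 1 of 3 pairs. In knockdown pulldowns it was 5.48 to 6.35% at rest and 6.22 to 6.64% after KCl. In PSD95-TurboID (5.71 to 10.3% and 5.31 to 18.7%) and Pan-TurboID pulldowns (7.15 to 9.96% and 5.13 to 12.8%) it was higher after KCl in 2 of 3 pairs.

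In the fit of 5′ UTR counts scaled to CDS totals, KCl in inputs gave no call among the 8 by edgeR (0.442% of 10186 genes) or DESeq2, and Neurod2 alone had an unadjusted p under 0.05 (0.89, SE 0.39, adjusted p = 0.807). With the replicate block Neurod2 was at 1.04 (adjusted p = 0.0132). Without the block, 5′ UTR counts of Neurod6 and Bhlhe22 were at −0.10 and −0.25 in these inputs, beside −0.63 and −0.76 for their CDS counts. No change of 5′ UTR counts was called for either gene there, with 95% intervals of −0.84 to 0.63 and −0.95 to 0.46. A rise or fall within these intervals cannot be told from none. In knockdown inputs, 5′ UTR counts of Neurod6 averaged 114 CPM at rest and 157 CPM after KCl, and those of Bhlhe22 101 and 89.3 CPM. In PSD95-TurboID pulldowns 0.275% of all genes were called and again none of the 8 by either tool, with unadjusted p under 0.05 for Neurod2 (1.82, SE 0.58, adjusted p = 0.181; 1.75 and 0.00580 with the block) and Tbr1 (1.53, SE 0.58, adjusted p = 0.243). The median over all genes was 0.65 in these pulldowns and 0.17 for KCl in inputs, and those of the 8 were 0.62 and 0.33. In knockdown inputs Neurod2 rose by 1.41 (SE 0.29, adjusted p = 0.00976), beside 3.41% of 8149 genes and a median of 0.50 over all genes. That call was lost without any of the 4 libraries (adjusted p from 0.130 to 0.290) and with 5′ UTR library sizes (0.91, adjusted p = 0.197).

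Pulldowns at rest had fewer 5′ UTR counts than inputs for 6 of the 8 genes, from −1.22 for Bcl11b (SE 0.46, adjusted p = 0.0205) to −2.15 for Neurod2 (SE 0.54, adjusted p = 0.00280). This stands beside 61.5% of all genes, and the median of the 8, −1.62, was close to the −1.59 of all genes tested. Without replicate 3 none of the 6 passed. After KCl Cux1 passed (−1.77, SE 0.56, adjusted p = 0.0452), beside 12.6% of all genes. It did not pass without replicate 1 (adjusted p = 0.0661) or 3 (adjusted p = 0.524), and with the replicate block 4 genes did, among them Neurod2 at −1.35 (adjusted p = 0.00132). How many of all genes passed with that block is not given. With DHPG all 8 were lower, from −1.30 for Neurod2 to −2.01 for Cux1 and Mef2c, beside 95.2% of 8517 genes and medians of −1.76 and −1.51. These differences are relative to CDS totals: scaled to 5′ UTR totals none of the 8 passed at rest, after KCl or with DHPG, and the value was above 0 for Mef2c (0.63), Bcl11b (0.35), Cux2 (0.25) and Neurod6 (0.072) at rest, for Mef2c (0.87), Tbr1 (0.54), Bcl11b (0.43), Neurod6 (0.085) and Bhlhe22 (0.026) after KCl and for Neurod2 (0.19) and Cux2 (0.062) with DHPG.

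Counts along the coding exons showed which parts of each gene carried footprints. Exons are numbered here by coding exon of the longest transcript. In Cux1, exons 1 to 14 (1255 nt) belong both to the long homeodomain transcript and to a shorter one that encodes the Golgi protein CASP, and exons 15 to 24 (3026 nt) carry the homeodomain. This split was made after the values were seen. Exons 1 to 14 averaged 32.0 ± 7.61 CPM per kb in the 19 inputs, exons 15 to 24 5.57 ± 2.31 and 9 last exons of the Golgi-type transcript (782 nt) 20.6 ± 6.05. Exons 1 to 14 made up 29.3% of the CDS, and held 68.9% of its counts pooled over inputs (51.99 to 83.0% by library) and 54.1% over pulldowns (37.6 to 76.1%). The homeodomain exons held 17 to 332 counts per library.

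Values for the exon classes of Cux1 stood apart in several comparisons. In DHPG pulldowns over inputs exons 1 to 14 were at −1.17 (SE 0.14, adjusted p = 3.72e-07), whereas exons 15 to 24 were at 0.36 (SE 0.18, adjusted p = 0.0694) and the Golgi-type exons at 0.09 (SE 0.17, adjusted p = 0.628). In Pan-TurboID pulldowns exons 1 to 14 were at −0.66 (SE 0.18, adjusted p = 0.00726) and exons 15 to 24 at −0.17 (SE 0.21, adjusted p = 0.555). In resting knockdown pulldowns exons 15 to 24 had 11.6 against 4.26 CPM per kb in inputs (1.55, SE 0.33, adjusted p = 0.000471), while exons 1 to 14 were lower (−0.63, SE 0.24, adjusted p = 0.0301). KCl in knockdown pulldowns lowered exons 15 to 24 (−1.18, SE 0.36, adjusted p = 0.0187). Against resting inputs, DHPG inputs were lower over both classes, by −1.14 (SE 0.25, adjusted p = 0.00242) for exons 15 to 24 and −0.46 (SE 0.17, adjusted p = 0.0435) for exons 1 to 14. The Golgi-type exons were at 0.31 (SE 0.30, adjusted p = 0.432) in resting knockdown pulldowns over inputs. The differences between exon classes were not tested. Exons 1 to 14 are also the 5′ part of the CDS of either transcript, so their class and their position cannot be told apart. The last exon is overlapped by the antisense gene Gm16599, and because use of strand in counting is not stated, reads of the pair cannot be told apart.

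**Figure D4:**
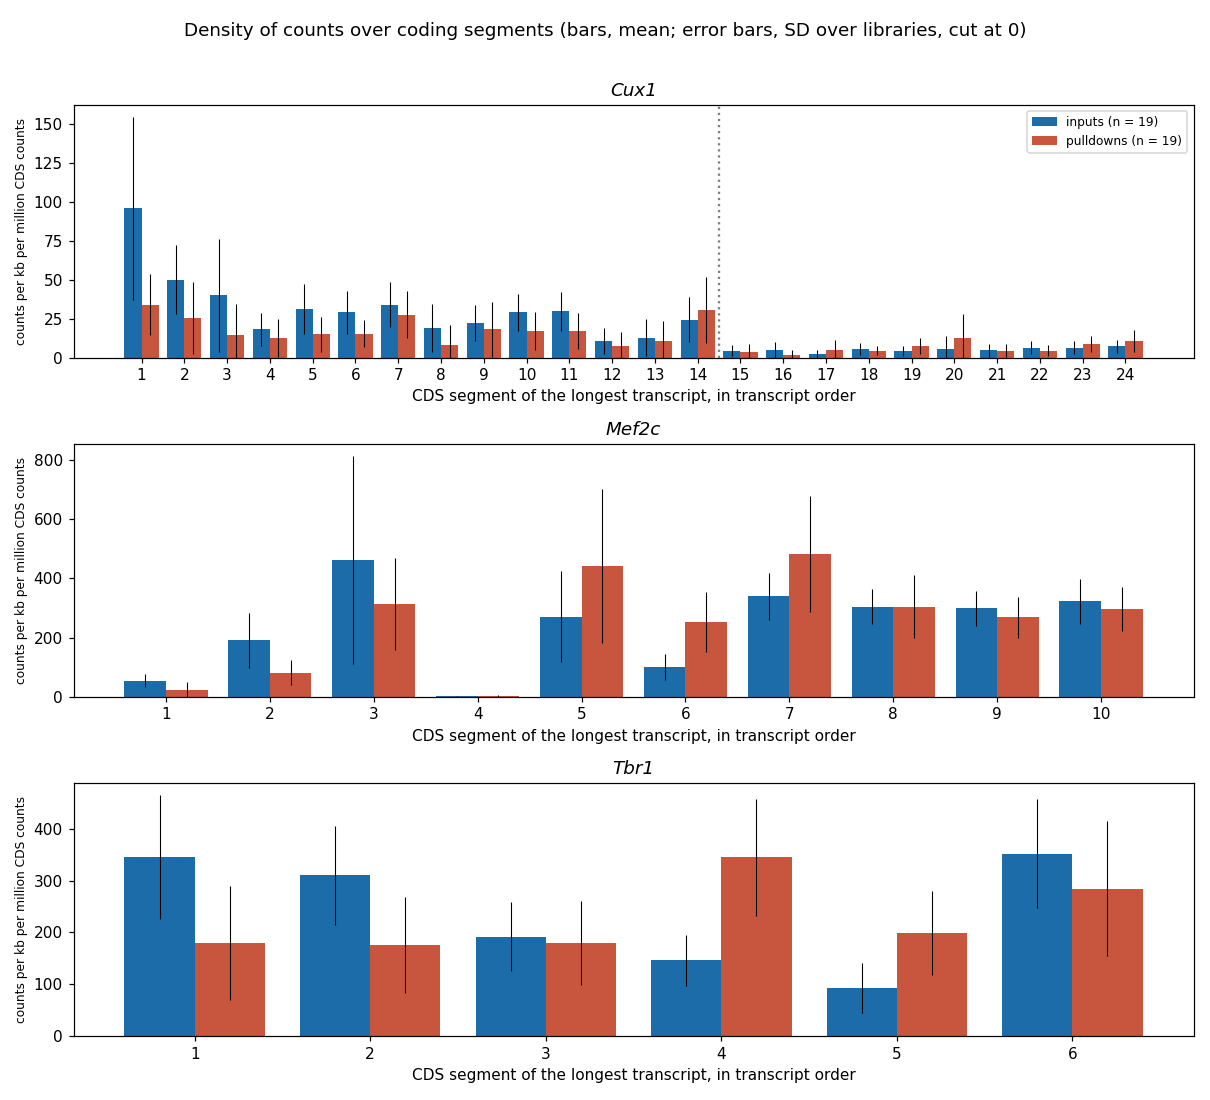
CPM per kb (vertical axis, from 0) over each coding exon of Cux1, Mef2c and Tbr1 in transcript order; bars are means and error bars SDs over 19 inputs (blue) and 19 pulldowns (red). The dotted line in Cux1 separates exons 1 to 14, at 32.0 CPM per kb in inputs, from exons 15 to 24, at 5.57.

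In Tbr1 the middle of the CDS gained weight in pulldowns. Exon 4 held 3.90% of the CDS counts in inputs and 13.2% in pulldowns, higher in 19 of 19 pairs, and exon 5 held 0.925% and 2.97%, higher in 18. Exon 1 held 37.0% and 24.1%, lower in 18 of 19 pairs. Early coding exons of Bcl11b and Mef2c also held less in pulldowns. Coding exon 2 of Bcl11b held 14.5% in inputs and 7.88% in pulldowns (lower in 18 of 19), with its last exon at 81.8% and 89.7% (higher in 19), and exon 2 of Mef2c held 10.3% and 4.56% (lower in 17). Exon 6 of Mef2c held 1.27% and 3.20%, higher in 19 of 19 pairs, and exon 5 13.1% and 20.0%, higher in 18. In Cux2 exons 3 and 4 had a lower share in 16 of 19 pairs and exon 20 a higher one in 16 (9.50% and 17.1%). These are descriptions of shares, with no test, and how often such shifts occur over all genes is not given. Over all genes, 5′ UTR counts were lower in pulldowns too, at a median of 7.00% of CDS counts against 25.9% in inputs. The exon shifts are therefore not shown to be particular to these genes.

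The longest transcript was not the one that carried the footprints of Mef2c throughout. Its exon 4 (138 nt) had 1.57 CPM per kb in inputs, against 463 ± 351 in exon 3, and a 144-nt alternative exon at 83625265 to 83625408 had 283 ± 225. No read fell in the first and second 5′ UTR exons of the longest transcript in any library, which allows up to 3 counts in each library. An alternative first exon at 83524535 to 83525080 (546 nt) had 14239 counts, at 171 ± 62.4 CPM per kb in inputs and 62.8 ± 25.8 in pulldowns. These are the counts that raise its 5′ UTR share to 21.7% in inputs. In Bcl11b exon 3 (216 nt) had 12.7 CPM per kb against 65.5 to 71.2 in the other exons.

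Over the 14 group means, Bhlhe22 and Neurod6 followed each other most closely of the 28 pairs of the 8 genes (Pearson's r = 0.88), then Tbr1 and Cux1 (0.81), Tbr1 and Neurod2 (0.81) and Bcl11b and Neurod2 (0.79). Mef2c ran opposite to Tbr1 (−0.68) and Bcl11b (−0.59). These groups share cultures, depth and scaling, and the values are descriptions. Among 7700 genes with a mean of at least 4 log2 CPM, the closest patterns to Tbr1 were those of Peg10, Dnajb1 and Rbm6 (0.98, 0.98 and 0.97), to Bhlhe22 those of Actg1, Syn3 and Zfp46 (0.95, 0.94 and 0.93) and to Neurod6 those of Fgf13, Gnaq and Caln1 (0.95, 0.94 and 0.94). For Neurod2 they were Aptx, Ufd1 and Zmat2 (0.97 each), for Bcl11b Mecr, Trnp1 and Cartpt (0.95, 0.94 and 0.93) and for Cux1 Cd164, Pigt and Creld2 (0.96, 0.95 and 0.95). Cux2 had Timp3, Slain1 and Bace2 (0.94, 0.92 and 0.92), and Mef2c had Rfx3, Sh3pxd2b and Cmtr2 (0.92, 0.90 and 0.90).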

How the data were processed

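Per the labels and the study's methods, the authors trimmed reads with Rfastp, split them by barcode with fastq-multx, cut off molecular identifiers and aligned the rest to mm10 with Rsubread. Alignment names in the file headers mark ribosomal and duplicate reads as removed, and how duplicates were found is not given in the sources used here. The deposited counts were made by the authors with plastid's counts_in_region, from the 5′ ends of reads of 25 to 100 nt with an offset of 0 and no mask. Use of strand and of multi-mapping reads is not given in the sources used here. Each gene was represented by its longest transcript, whose identifier was matched to GENCODE M21 (66664 of 67238 coding transcripts). CDS counts were fitted with edgeR 4.0.16 (TMM, quasi-likelihood test, R 4.3.3) within each experiment, or over the PSD95-TurboID libraries of both where experiments were crossed, after a filter on low counts (filterByExpr), in 20 comparisons of CDS and 6 of 5′ UTR counts, the latter with CDS library sizes. P-values were adjusted by Benjamini-Hochberg over all genes tested, at a threshold of 0.05. The likelihood ratio test, DESeq2 1.42.0, other size factors and filters, a replicate block, a CDS length trend, another transcript and leaving out each library were alternatives. Shares of all genes called are given for the main fits only.

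The 8 genes, the lists and the tests were chosen with earlier results of these data known. All 8 genes are named in every comparison of CDS counts. Of 29 other factors, those past the threshold for KCl in inputs are named, at most 3 a direction by smallest p, and for each of the 8 genes the 3 closest patterns by Pearson's r of group means of log2(CPM + 0.5).

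Resting and activated samples of a replicate were processed together and each input is part of its pulldown's lysate, per the methods, so replicate numbers pair samples in the KCl experiment. There, deviations from group means of same-numbered libraries correlated at a median of 0.142 (−0.291 to 0.711, 84 pairs) and those of others at −0.107. The main fits had no term for this pairing, which entered only with the replicate block as an alternative. In the DHPG (−0.229 to 0.0656) and knockdown (−0.018 to 0.0557) experiments same-numbered libraries did not deviate together. Inputs and pulldowns of a number are matched there by the shared lysate of the protocol, and resting and depolarized knockdown libraries by the number alone. Replicates differed beyond counting error in all 34 pairs within groups. The methods call the PL-Ribo-seq replicates biological and pool several dishes for each. Whether this covers the DHPG and knockdown libraries is not given in the sources used here, so their p-values measure only the spread between libraries. On simulated counts, edgeR recovered 60.6% of 2-fold changes for KCl in inputs (12835 genes), 34% for resting PSD95-TurboID pulldowns over inputs (12848 genes) and 18.2% for knockdown against none in resting inputs (12923 genes). The simulated libraries were drawn independently, without the pairing or the length trend seen in the data, so these shares describe that setting only.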

Additional observations from a re-analysis of the deposited data

How the results depend on the processing

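Of 57 calls for the 8 genes, 22 held under every alternative counted here, and of 719 refits of those calls 651 held, 64 lost significance and 4 reversed. The exon classes of Cux1 are not in these counts. Of the 22, the Cux1 call for DHPG pulldowns over inputs did not hold over exons 15 to 24 (0.36) or the Golgi-type exons (0.090). Its call for DHPG against resting pulldowns did not hold over the Golgi-type exons (0.32). The numbers below are genes of the 8 called, and the cause of each change was not tested. The shares of all genes called by these alternatives are not given. A change particular to the 8 and a general change in calls therefore cannot be told apart. With the replicate block, 1 gene passed for KCl in PSD95-TurboID pulldowns (none without it), 1 each for 5′ UTR counts with KCl in inputs and in these pulldowns (none), 4 for 5′ UTR counts of depolarized pulldowns over inputs (1), 2 for KCl in knockdown pulldowns (1) and 3 for knockdown against none in depolarized pulldowns (1). Blocked within condition, 2 passed for depolarized PSD95-TurboID pulldowns over inputs (none) and 5 for Pan-TurboID (2). The block moved no other count by over 1.5 times. With the CDS length trend removed, counts were 1 (depolarized pulldowns over inputs), 8 (depolarized knockdown pulldowns over inputs), 2 (KCl in knockdown inputs and in pulldowns) and 3 (knockdown against none, depolarized pulldowns). The transcript with most counts gave 1 for Pan-TurboID and 2 for KCl in knockdown pulldowns. For KCl in knockdown inputs, no filter, RLE size factors and the likelihood ratio test gave 2 each and the compared groups alone 4. For KCl in knockdown pulldowns, RLE, the likelihood ratio test and DESeq2 gave 2 each. For knockdown against none in depolarized pulldowns, RLE and DESeq2 gave 2 and the compared groups alone 0. For 5′ UTR counts of depolarized pulldowns over inputs, the likelihood ratio test and DESeq2 gave 3 each.

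With 5′ UTR library sizes in place of CDS totals, none (0) of the 8 passed in any of the 5′ UTR comparisons that had calls, and the sign of called values turned for Bcl11b (0.35) and Neurod6 (0.072) in resting pulldowns and for Neurod2 (0.19) and Cux2 (0.062) with DHPG, as did values that had not passed (Cux2 at 0.25 and Mef2c at 0.63 at rest, and 5 genes after KCl), so the direction of those 5′ UTR differences holds relative to CDS totals only. For Cux1, an alternative chosen after seeing the data, exons 15 to 24 gave 0.36 and the Golgi-type exons 0.090 for DHPG pulldowns over inputs, and the Golgi-type exons 0.32 for DHPG against resting pulldowns.

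Leaving out 1 library or replicate at a time gave 0 to 2 for KCl in inputs, 0 to 1 for KCl in Pan-TurboID pulldowns, 0 for KCl in PSD95-TurboID pulldowns, 0 to 3 for resting PSD95-TurboID pulldowns over inputs and 0 for depolarized ones and for Pan-TurboID. The 5′ UTR ranges were 0 to 2 for KCl in pulldowns, 0 to 6 and 0 to 2 for resting and depolarized pulldowns over inputs, 8 for DHPG and 0 to 1 for KCl in knockdown inputs. With DHPG the ranges were 6 to 7 (pulldown over input) and 3 to 5 (against resting inputs and pulldowns). With knockdown they were 5 to 6 for pulldowns over inputs, 0 to 2 and 1 to 2 for KCl in inputs and pulldowns, and 0 to 1, 1 to 2, 0 to 3 and 1 to 3 against none in resting inputs, depolarized inputs, resting pulldowns and depolarized pulldowns. The lowest counts in a library were 33 for Bhlhe22, 47 for Neurod6, 55 for Cux2 and 71 for Cux1.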
